A study of Mus musculus with 2 samples.

Results

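The 10 genes described here build, tether and crosslink elastic fibres: elastin (Eln), the EMILIN genes Emilin1 and Emilin2, the fibulin genes Fbln1, Fbln2, Fbln5, Efemp1 and Efemp2, and the lysyl oxidases Lox and Loxl1. They were chosen by gene symbol, as 10 of the 33456 genes counted, and their levels were read across cell classes that were formed without them. The study was exploratory. Its single group consisted of 2 single-cell RNA libraries, made in droplets from the ciliary epithelium of untreated wild-type mice (C57BL/6) aged 35 postnatal days. Each library was a pool of eyes, 3 sets in library 1 and 3 or 4 sets in library 2, since the labels differ. Each value below therefore has n = 2 libraries. The p-values rest on the spread left over all classes of a fit after terms for class and library. They do not measure the overall difference between the 2 pools, nor the spread of the compared classes alone.

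Elastic fibres consist of an elastin core on a scaffold of fibrillin microfibrils. Fibulins bind tropoelastin, fibrillins or the lysyl oxidases and help to deposit elastin on that scaffold, EMILINs sit at the interface of elastin and microfibrils, and lysyl oxidases crosslink tropoelastin and collagen by oxidising lysine residues. In the eye the zonule that suspends the lens is made of fibrillin microfibrils and contains little or no elastin, the non-pigmented ciliary epithelium is its main source, and elastic fibres are found in the stroma of the ciliary body and in the outflow tissue. In humans, variants near LOXL1 are associated with exfoliation syndrome, and a missense variant of EFEMP1 causes a dominant macular dystrophy with drusen.

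Fbln1 and the short fibulin genes Fbln5, Efemp1 and Efemp2 had different distributions over the cell classes, and the 250 bases before an annotated start of each are shown for that reason (RefSeq, build GRCm38.p6, written in the direction of the gene). Capitals mark every match, on either strand, to a TATA box (TATAAA), a GC box (GGGCGG) or an AP-1-like site (TGANTCA, where N is any base). No matches overlapped. The Fbln1 sequence lies at chr15:85205699-85205948 on the plus strand, that of Fbln5 at chr12:101819120-101819369 on the minus strand, that of Efemp1 at chr11:28852955-28853204 on the plus strand and that of Efemp2 at chr19:5473696-5473945 on the plus strand.
Fbln1: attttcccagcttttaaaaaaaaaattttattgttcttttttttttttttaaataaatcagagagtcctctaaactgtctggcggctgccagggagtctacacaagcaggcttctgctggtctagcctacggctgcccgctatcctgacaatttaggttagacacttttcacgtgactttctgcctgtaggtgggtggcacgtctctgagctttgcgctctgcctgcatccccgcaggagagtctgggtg
Fbln5: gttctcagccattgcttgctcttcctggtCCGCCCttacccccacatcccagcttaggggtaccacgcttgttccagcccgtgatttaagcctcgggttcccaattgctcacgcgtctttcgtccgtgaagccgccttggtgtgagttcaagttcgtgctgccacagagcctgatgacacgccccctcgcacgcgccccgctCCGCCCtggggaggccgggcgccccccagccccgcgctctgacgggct
Efemp1: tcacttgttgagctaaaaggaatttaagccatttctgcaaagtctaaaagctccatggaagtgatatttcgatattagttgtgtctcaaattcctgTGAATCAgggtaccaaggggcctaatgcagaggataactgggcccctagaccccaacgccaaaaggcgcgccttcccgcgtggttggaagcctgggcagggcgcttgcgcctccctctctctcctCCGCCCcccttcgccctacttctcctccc
Efemp2: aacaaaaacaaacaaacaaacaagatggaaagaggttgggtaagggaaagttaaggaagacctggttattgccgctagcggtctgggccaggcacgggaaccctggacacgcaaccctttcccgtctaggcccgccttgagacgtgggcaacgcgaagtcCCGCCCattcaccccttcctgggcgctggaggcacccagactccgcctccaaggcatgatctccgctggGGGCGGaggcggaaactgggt
The Fbln1 sequence held 0 matches, and those of Fbln5 and Efemp2 held 2 GC boxes each. That of Efemp1 held 1 GC box and 1 AP-1-like site, TGAATCA. Of the 32851 promoters in the same table, 32.7% held a GC box, 6.75% an AP-1-like site and 12.4% a TATA box in the same 250 bases. RefSeq lists 2 starts for Fbln1, 2 for Fbln5 and 3 for Efemp2. The start nearest to the first base of the annotated gene, read in the direction of the gene, was taken. A match describes the letters of the window and was not tested as a site.

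Library 1 kept 3865 of 4764 cell barcodes, with a median of 4128 unique molecular identifiers (UMIs) per cell, and library 2 kept 5466 of 6220, with a median of 2968. The kept cells of the 2 libraries shared 8 barcode sequences. Clustering on other genes gave 25 clusters, and 18 classes had 20 or more cells per library. Class names below mean cells that carry the markers of that type ("fibroblast-like" and so on), and the label ciliary epithelium covers a minority of the cells, since the non-pigmented class had 146 and 155 cells and the pigmented class 134 and 210. In the non-pigmented class 9 of its 9 markers were counted, among them Best2, Cldn19 and Six6. The pigmented class had Myh11 and Acta2, genes of smooth muscle, among its 10 leading genes, and it holds ciliary and iris cells that were not told apart. Levels are given as CPM, the UMIs of the gene scaled to the total UMIs of the class in that library. In these sums, fewer cells with a gene and less of it per cell cannot be told apart. The fold changes also use TMM size factors, which these levels do not, and the 2 can differ in sign where classes are close. For Emilin1 in library 1, mural cells held 76.8 CPM against 68.5 CPM in fibroblasts, with a log2 fold change of -0.21. Rods, which should lack these genes, were used as a guide to free RNA. In rods the levels of the 10 genes lay between 0 and 24.7 CPM. Of the 2 rod clusters, cluster 13 (225 and 858 cells) was higher for Fbln1, at 31.3 and 58.6 CPM, from 7 and 55 UMIs.

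**Figure D1:**
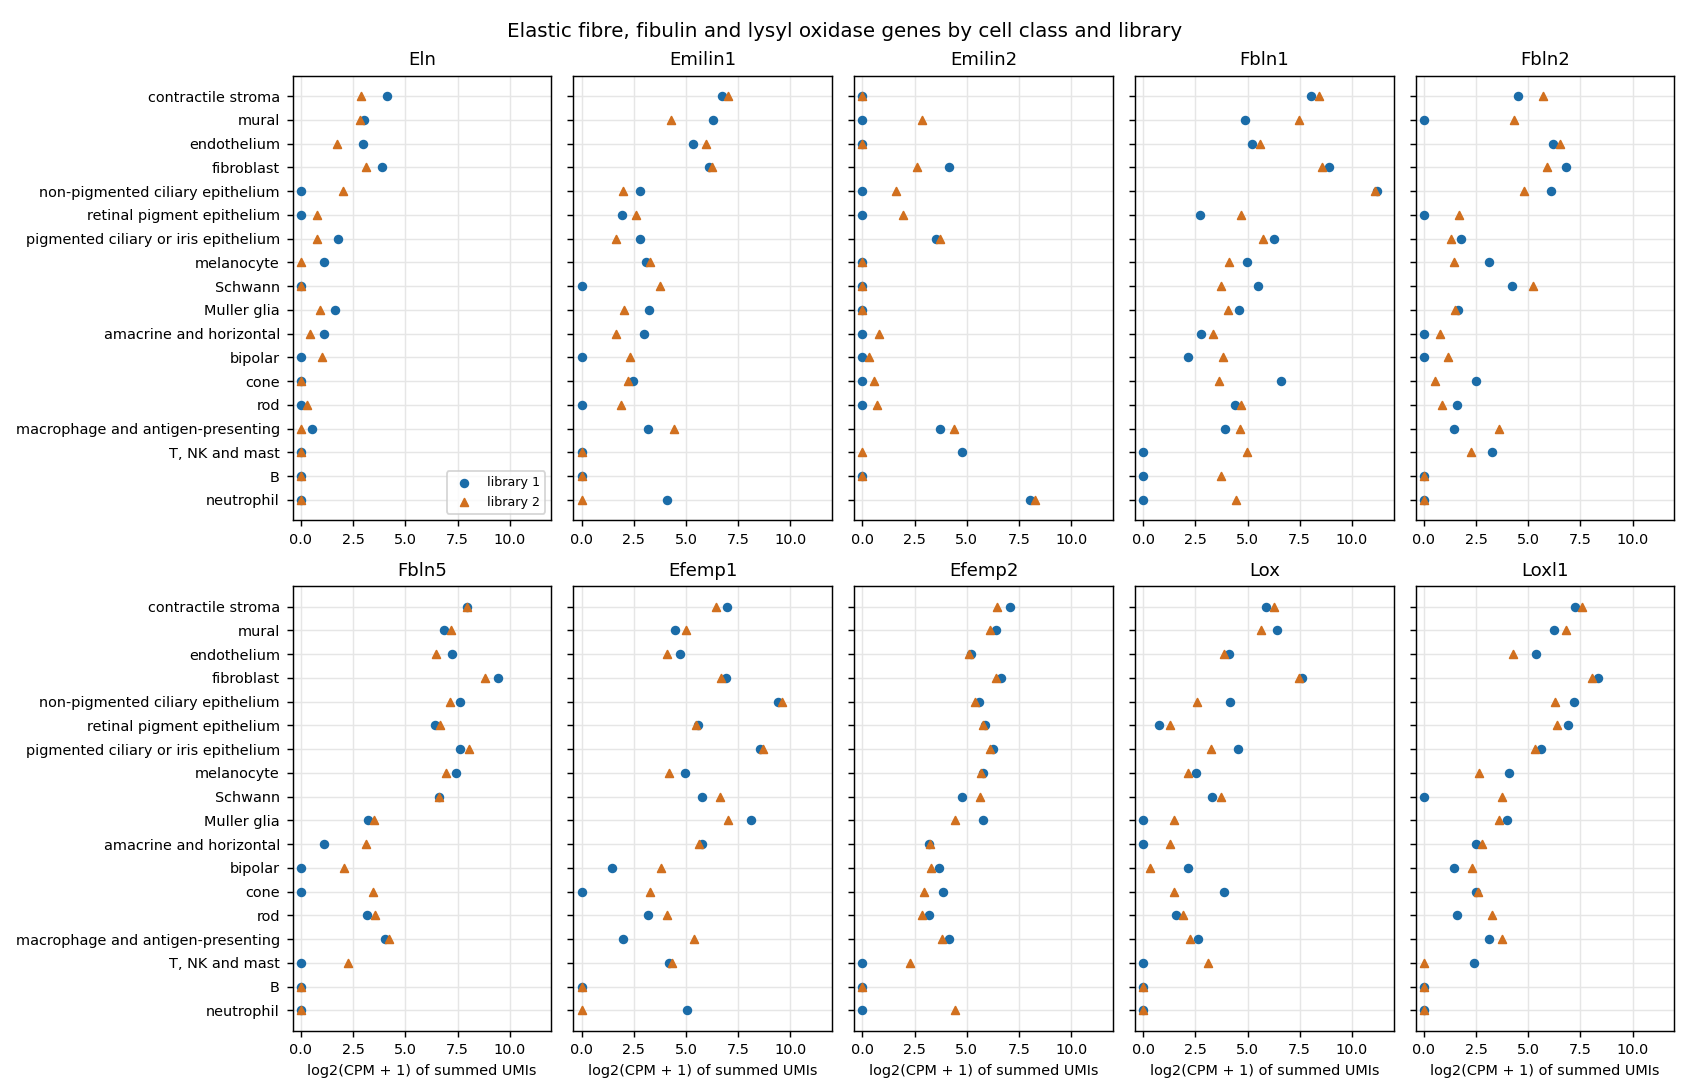
Level of each gene as log2(CPM + 1) of summed UMIs (horizontal axis) in 18 cell classes (vertical axis), with circles for library 1 and triangles for library 2. Fbln1 and Efemp1 stand highest in non-pigmented epithelium, Fbln5, Lox and Loxl1 in fibroblasts, and Emilin2 in neutrophils.

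After each cell was thinned to 1000 UMIs, 89.3% of non-pigmented epithelial cells in library 1 and 80.8% in library 2 had a UMI of at least 1 of the 10 genes. In fibroblasts these shares were 80.8% and 68.7%, and in contractile stroma 64.9% and 72.4%. In rods they were 3.52% and 8.43%. Cells with UMIs of 3 or more of the 10 genes made up 18.3% and 10.0% of non-pigmented cells, 19.8% and 11.5% of fibroblasts, and 0% of rods in both libraries. Thinning left out 15 and 25 non-pigmented cells, 13 and 19 fibroblasts, 8 and 4 contractile stromal cells, and 186 and 464 rods with fewer than 1000 UMIs.

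**Figure D2:**
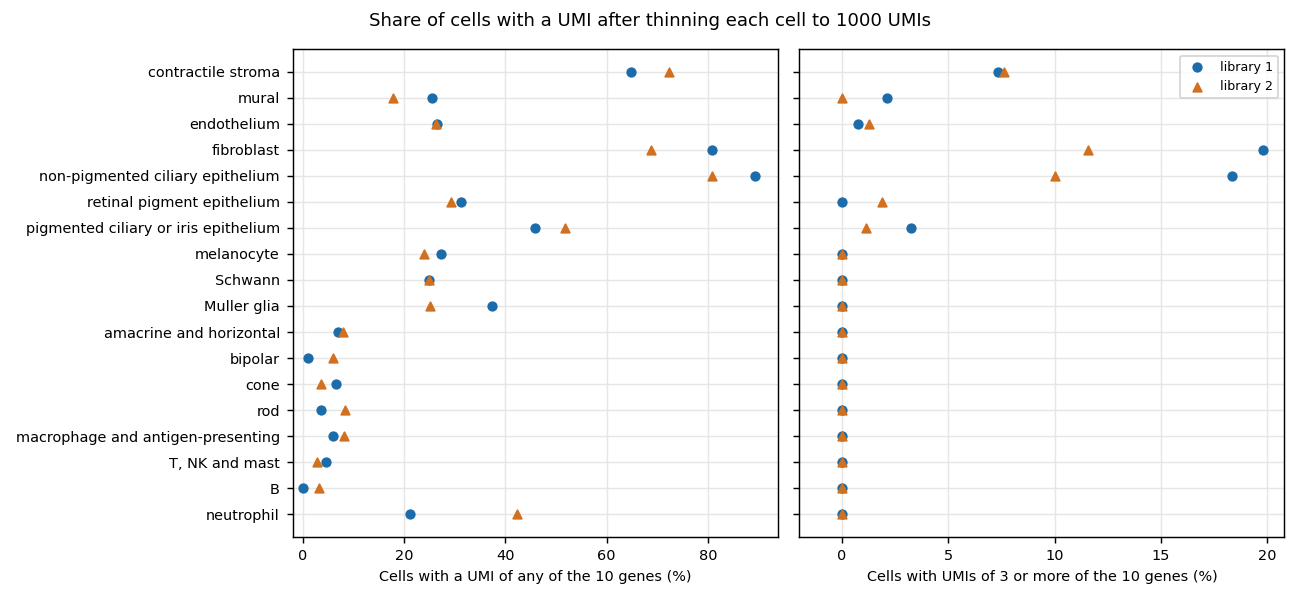
Share of cells (percent) with a UMI of at least 1 of the 10 genes (left) and of 3 or more of them (right) after thinning each cell to 1000 UMIs, by class, with circles for library 1 and triangles for library 2. Non-pigmented epithelium, fibroblasts and contractile stroma stand above every other class in both panels in both libraries.

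Eln, which encodes tropoelastin itself (chromosome 5, 134702593 to 134747323, minus strand; GRCm38 for all genes below), was sparse everywhere. Contractile stroma, a class with Tagln, Acta2 and Lypd1 among its leading genes, held 39 UMIs (16.6 CPM) in library 1 and 3 UMIs (6.41 CPM) in library 2. Fibroblasts held 77 UMIs (13.96 CPM) and 28 UMIs (7.60 CPM). These classes overlapped, and no other class reached 7 CPM in either library. The ciliary epithelium was at the limit of detection, with 0 and 3 UMIs in the non-pigmented class and 2 and 1 in the pigmented class. In the non-pigmented class of library 1 a count of 0 allows up to 3.01 CPM. Pooled over libraries, Eln was 8.07 times as high in fibroblasts as in the epithelial layers (95% counting interval 3.59 to 22.5, from 105 against 6 UMIs). Such intervals cover counting error only.

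Emilin1 (chromosome 5, 30913402 to 30921277), whose protein binds elastin and fibulin-5, was highest in contractile stroma at 103 and 128 CPM. Fibroblasts stood at 68.5 and 73.9 CPM, below contractile stroma in both libraries. Endothelium (38.8 and 60.9 CPM) and mural cells (76.8 and 18.6 CPM) overlapped, and the mural value of library 2 rests on 3 UMIs. The epithelial layers held between 2.14 and 6.02 CPM.

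Emilin2 (chromosome 17, 71252172 to 71311978), its relative, had another distribution. Neutrophils held it at 259 CPM in library 1 and 308 CPM in library 2, from 16 and 15 UMIs. A UMI was present in 40.0% of 40 neutrophils (exact Clopper-Pearson 95% interval 24.9 to 56.7) and in 37.0% of 27 (19.4 to 57.6). In rods the shares were 0% and 0.17%, at median depths of 1254.5 and 1759 UMIs in neutrophils and 1011 and 1248 in rods. After thinning, with 7 and 1 neutrophils left out, the shares were 18.2% and 38.5% in neutrophils, against 0% and 0.15% in rods. Macrophages and antigen-presenting cells held 12.3 and 19.9 CPM, and the class of T, NK and mast cells 26.1 CPM from 6 UMIs in library 1 and 0 UMIs in library 2. Contractile stroma, endothelium, melanocytes, Schwann cells and Muller glia held 0 UMIs in both libraries.

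Fbln1 (chromosome 15, 85205949 to 85286535) encodes fibulin-1, a glycoprotein of basement membranes and elastic fibres. The non-pigmented epithelium held 2341 CPM in library 1 and 2178 CPM in library 2. Fibroblasts followed at 480 and 376 CPM and contractile stroma at 266 and 340 CPM, and the libraries of these classes did not overlap. The pigmented epithelium held 77.0 and 52.9 CPM, and rods 20.2 and 24.7 CPM. In library 2 the pigmented level lay below the 58.6 CPM of rod cluster 13 and is not read as expression. A UMI was present in 82.9% and 76.1% of non-pigmented cells (81.7% and 70.8% after thinning) and in 2.60% and 5.88% of rods (1.51% and 3.68% after thinning), at median depths of 3305 and 2492 UMIs in the non-pigmented class.

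Fbln2 (chromosome 6, 91212455 to 91272540), which encodes fibulin-2, was highest in stroma and vessel lining. Fibroblasts held 110 and 58.9 CPM, endothelium 70.7 and 90.3 CPM, and non-pigmented epithelium 67.2 and 27.0 CPM. Contractile stroma held 22.1 and 51.3 CPM. The pigmented epithelium held 2 UMIs in each library, 2.37 and 1.43 CPM. Endothelium and fibroblasts overlapped for Fbln2, and endothelium lay above non-pigmented epithelium in both libraries, whereas for Fbln1 endothelium (36.2 and 47.4 CPM) lay below fibroblasts. In the non-pigmented class the 67 UMIs of library 1 came from 16 of 146 cells and the 27 UMIs of library 2 from 12 of 155 cells. Of these cells 15 of 16 and 12 of 12 also held Fbln1. The summed fibroblast markers were at 1510 and 717 CPM in the cells with Fbln2, against 819 and 516 CPM in those without it, and 53118 and 30606 CPM in fibroblasts. Their median depths were 4922.5 and 9276 UMIs, against 3212 and 2370 UMIs in cells without Fbln2. The part of fibroblast RNA and depth in the Fbln2 level was not tested.

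Fbln5 (chromosome 12, 101746565 to 101819055) encodes fibulin-5, which tethers elastin to cell-surface integrins and whose loss in mice disrupts elastic fibres. Fibroblasts held 687 and 457 CPM. Contractile stroma held 245 and 248 CPM and overlapped with the pigmented epithelium at 198 and 264 CPM. The non-pigmented epithelium held 193 and 138 CPM and melanocytes 174 and 123 CPM. Mural cells, endothelium, Schwann cells and retinal pigment epithelium followed without a gap between neighbours, down to 83.9 CPM. Macrophages stood below all of these at 15.3 and 17.8 CPM, and rods held 8.07 and 10.8 CPM.

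Efemp1 (chromosome 11, 28853204 to 28926743) encodes fibulin-3 and was highest in epithelium and glia. The non-pigmented epithelium held 681 and 763 CPM, the pigmented epithelium 367 and 411 CPM, and Muller glia 271 and 127 CPM, in that order in both libraries. Fibroblasts (121 and 100.8 CPM) and contractile stroma (125 and 85.5 CPM) overlapped below them. The retinal pigment epithelium held 45.8 and 43.1 CPM. In Muller glia a UMI was present in 58.5% and 43.2% of cells (27.1% and 17.4% after thinning), against 1.04% and 3.90% of rods (0.50% and 2.15% after thinning), at a median depth of 2567 and 2585 UMIs in Muller glia. Muller glia held 0.0846 and 0.122 Fbln1 UMIs per Efemp1 UMI, against 3.44 and 2.85 in the non-pigmented class. The summed non-pigmented markers stood at 3346 and 1565 CPM in Muller glia, while the non-pigmented class held them at 3811 and 3579 CPM, and both have Col9a1 among their leading genes. Within the amacrine and horizontal class, the cluster led by C1ql1, Cartpt and Gad1 held 70.4 and 66.0 CPM, while the cluster led by Calb1 and Slc6a9 held 4.35 and 8.09 CPM, from 1 and 7 UMIs.

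Efemp2 (chromosome 19, 5473954 to 5482517) encodes fibulin-4, which brings lysyl oxidase to tropoelastin and is required in mice for elastic fibres to form. It was spread over many classes. Contractile stroma held 133 and 85.5 CPM, fibroblasts 97.3 and 83.6 CPM, mural cells 83.8 and 68.3 CPM and the pigmented epithelium 75.8 and 68.6 CPM, with each class overlapping its neighbour. The retinal pigment epithelium held 57.1 and 53.1 CPM and the non-pigmented epithelium 47.1 and 41.0 CPM. Rods held 8.07 and 6.24 CPM.

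Lox (chromosome 18, 52516067 to 52529867) encodes lysyl oxidase. Fibroblasts held 196 and 176 CPM. Contractile stroma (57.8 and 76.9 CPM) and mural cells (83.8 and 49.6 CPM) overlapped below them. The pigmented epithelium held 22.5 and 8.58 CPM and the non-pigmented epithelium 17.1 and 4.99 CPM, from 17 and 5 UMIs. The retinal pigment epithelium held 1 and 2 UMIs, a level no higher than that of rods.

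Loxl1 (chromosome 9, 58287738 to 58313186), the lysyl oxidase needed in mice for elastic fibre upkeep after birth, reached further into the epithelia. Fibroblasts held 327 and 262 CPM and contractile stroma 150 and 192 CPM. The non-pigmented epithelium held 143 and 76.9 CPM and overlapped with the retinal pigment epithelium at 118 and 81.9 CPM. The pigmented epithelium held 48.6 and 38.6 CPM, below both in each library. A UMI was present in 40.2% and 29.6% of retinal pigment epithelial cells (13.9% and 8.96% after thinning) and in 0.26% and 1.75% of rods (0% and 0.84% after thinning), at median depths of 4433 and 3506 UMIs in retinal pigment epithelium. Eln, Efemp2, Lox and Emilin2 each overlap a gene on the opposite strand. The sources used here do not say whether counting used strand, and whether reads of those genes enter these levels was not tested.

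The non-pigmented layer was then set against the pigmented layer of the ciliary or iris epithelium. Of the 10 genes, 3 were higher in the non-pigmented layer and 0 were lower (edgeR quasi-likelihood test on class sums, adjusted p under 0.05 and a log2 fold change of at least 1). Over all 6998 genes tested, 3.32% were called higher and 2.04% lower (5.36% either way). Fbln1 was higher by a log2 fold change of 5.16 ± 0.65 (SE, adjusted p = 1.67e-06). Fbln2 was higher by 4.65 ± 0.84 (adjusted p = 0.000483), a ratio of 26.4 with a 95% counting interval of 9.97 to 98.8, since the pigmented layer held 4 UMIs. Loxl1 was higher by 1.34 ± 0.39 (adjusted p = 0.0346). Efemp1 had 0.91 ± 0.49 (adjusted p = 0.407), Fbln5 had -0.47 ± 0.38 (adjusted p = 0.669) and Efemp2 had -0.70 ± 0.32 (adjusted p = 0.286), and these did not pass. Nor did Emilin2, at -3.40 ± 1.15 (edgeR adjusted p = 0.0913), from 0 and 2 UMIs against 9 and 17. The call of Loxl1 was lost under DESeq2 (adjusted p = 0.121), without the library term (0.106), at a mitochondrial limit of 15% (0.102) and without the pigmented cells that hold Myh11 (0.256), and its adjusted p lay between 0.000405 and 0.256 in the 10 alternative fits.

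Of the 10 microfibril and elastin partner genes listed beside the members, 5 were higher in the non-pigmented layer and 0 lower, with a median log2 fold change of 1.58, against -0.03 over all genes tested. Ltbp2, a latent TGF-beta binding protein of microfibrils, held 211 and 206 CPM in the non-pigmented layer, against 7.11 and 0.715 CPM in the pigmented layer. Fbn2, encoding fibrillin-2, held 104 and 68.9 CPM against 2.37 and 0.715 CPM. Mfap4, a microfibril-associated glycoprotein, held 775 and 561 CPM against 77.0 and 10.0 CPM. Of the other fibulin and EMILIN family genes 2 of 5 tested were higher and 0 lower. None of 6 other lysyl oxidase and activator genes and none of 7 elastin-degrading proteases passed in either direction. Of 10 integrin and elastin receptor genes, 0 were higher and 1 was lower, Itga9, which encodes an integrin subunit (named after its values were seen; 3 and 2 UMIs against 19 and 39).

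The pigmented class was divided after its values were seen by whether a cell held a UMI of Myh11, smooth muscle myosin, which is found in the myoepithelium of the iris. In library 1, 59 of 134 cells held one and in library 2, 52 of 210. In the cells with Myh11, Emilin2 stood at 20.5 and 27.2 CPM, from 9 and 16 UMIs, against 0 and 1 UMIs in the cells without it, where 0 counts allow up to 7.42 CPM. Fbln5 stood at 84.1 and 217 CPM in cells with Myh11, against 321 and 297 CPM in cells without it. Loxl1 stood at 20.5 and 32.3 CPM, against 79.1 and 43.2 CPM. Efemp1 stood at 352 and 396 CPM, against 383 and 422 CPM. Cells with Myh11 were deeper, with medians of 5612 and 9854.5 UMIs against 3577 and 3172, and the part of depth in these differences was not tested.

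Fibroblasts were set against the mean of the epithelial layers. That mean gives the log level of each layer the same weight, so a low level in 1 layer can carry a call. Of the 10 genes, 7 were higher in fibroblasts and 1 was lower, where 14.6% of all genes were called higher and 9.1% lower (23.7% either way). Emilin1 had 68.5 and 73.9 CPM in fibroblasts, against 5.97 and 2.50 CPM in the pooled layers, a log2 fold change of 4.35 ± 0.44 (SE, edgeR adjusted p = 4.82e-09). Lox was higher by 4.14 ± 0.33 (adjusted p = 8.05e-11). Fbln2 was higher by 3.42 ± 0.51, Eln by 3.01 ± 0.64, Loxl1 by 2.34 ± 0.29 and Fbln5 by 1.797 ± 0.31, with adjusted p between 2.15e-07 and 0.000592. For Fbln2 the difference was mostly to the pigmented layer, with 2.37 and 1.43 CPM from 2 UMIs per library. The non-pigmented layer held 67.2 and 27.0 CPM, against 110 and 58.9 CPM in fibroblasts. Efemp1 was lower, with 121 and 100.8 CPM in fibroblasts against 537 and 558 CPM in the layers, a log2 fold change of -2.002 ± 0.46 (adjusted p = 0.001). Fbln1, with 0.43 ± 0.47 (adjusted p = 0.547), was not called, and fibroblasts lay between the layers. Fibroblasts held 480 and 376 CPM, against 1303 and 939 CPM in the pooled layers. The pooled CPM sums the UMIs of both layers, whereas the fold change averages their log levels, and here the 2 differ in direction. Efemp2, at 0.92 ± 0.24 (adjusted p = 0.00413), fell short of the fold limit.

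Emilin2 was called higher in fibroblasts at 1.90 ± 0.72 (edgeR adjusted p = 0.0481), but library 2 alone gave 0.08. Of the 111 fibroblast UMIs, 110 lay in fibroblast cluster 4, which held 290 of the 836 fibroblasts of library 1 and 62 of the 530 of library 2. In library 2 fibroblasts held 5.16 CPM against 7.92 CPM in the pooled layers, and in library 1 they held 16.7 against 4.89 CPM. The call was lost with RLE size factors in edgeR, without the library term and under DESeq2. The adjusted p of the 10 alternative fits lay between 0.00339 and 0.612.

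Of the listed partner genes, 6 of 10 microfibril genes, 3 of 6 lysyl oxidase and activator genes, 3 of 5 fibulin and EMILIN relatives, 4 of 7 proteases and 3 of 10 receptor genes were called higher in fibroblasts than in the mean of the layers, and 0 of any list were lower. Some of the called genes were not above each layer. Ltbp2 (200 and 123 CPM) and Fbn2 (68.0 and 56.8 CPM) lay below the non-pigmented layer (211 and 206, and 104 and 68.9 CPM). Fbln7 (37.5 and 41.8 CPM) overlapped with it (51.1 and 38.0 CPM). Itga9 (17.6 and 19.0 CPM) lay below the pigmented layer (22.5 and 27.9 CPM). The lists' median log2 fold changes were 2.39, 1.45, 1.09, 1.31 and 0.78 in that order, against 0.12 over all genes tested. Mfap5, a microfibril-associated protein, held 785 and 459 CPM in fibroblasts, against 14.7 and 4.58 CPM in the layers. Pcolce, which enhances procollagen processing, held 1445 and 974 CPM against 273 and 252 CPM. Bmp1, the protease that activates lysyl oxidase, held 68.0 and 59.2 CPM against 20.1 and 22.9 CPM. Mmp2, a gelatinase that also cleaves elastin, held 517 and 304 CPM against 9.77 and 2.08 CPM.

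**Figure D3:**
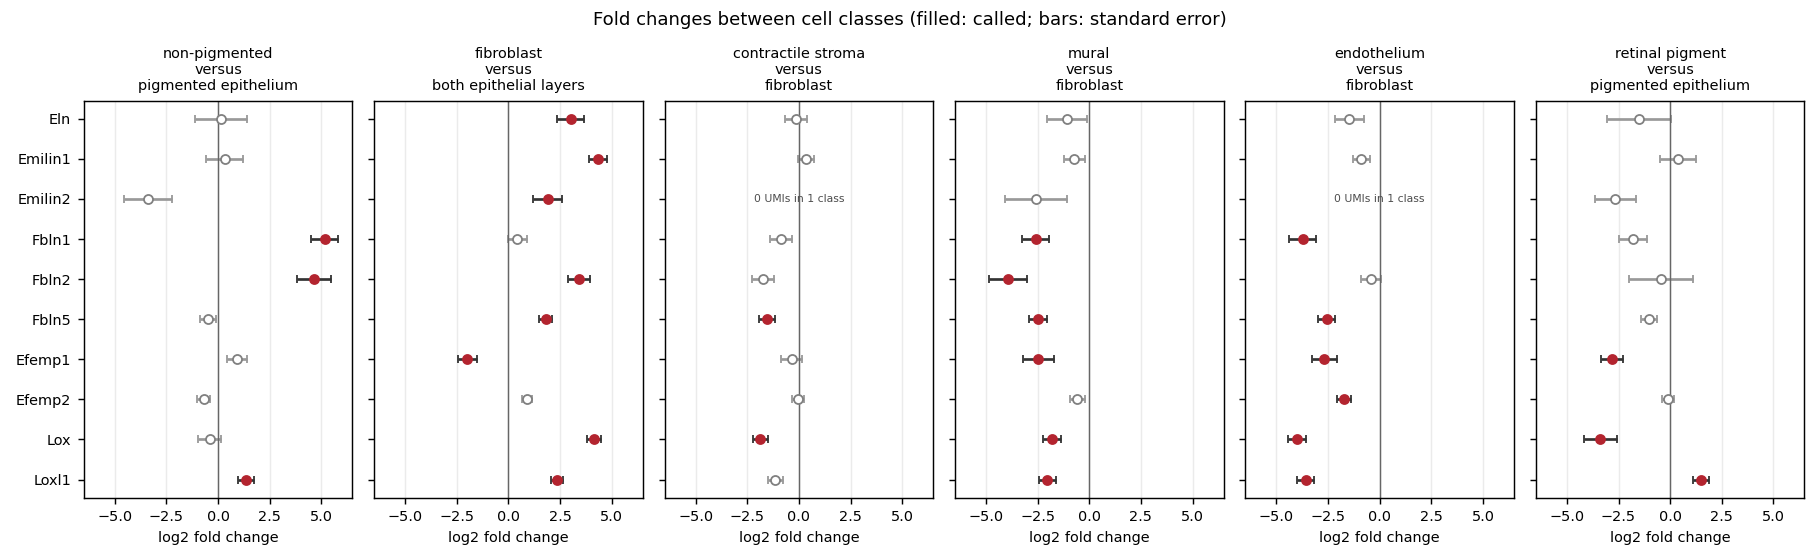
Log2 fold change of each gene (horizontal axis, with the standard error as a bar) in 6 comparisons of cell classes, where filled points passed the test and the fold limit. Fbln1, Fbln2 and Loxl1 are filled in the comparison of non-pigmented with pigmented epithelium, and Emilin2 has no point where 1 class held 0 UMIs.

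Contractile stroma was set against fibroblasts. Of the 10 genes, 3 were lower in contractile stroma and 0 were higher, where 2.84% of all genes were called lower and 1.21% higher (4.06% either way). Lox was lower, at 57.8 and 76.9 CPM against 196 and 176 CPM, a log2 fold change of -1.86 ± 0.37 (SE, edgeR adjusted p = 0.00211). Fbln5 was lower by -1.56 ± 0.38 (adjusted p = 0.0118). This did not hold for every fibroblast cluster, since cluster 10, at 220 and 199 CPM, lay below contractile stroma, at 245 and 248 CPM. Emilin2, with 0 UMIs against 111, was at least 11.3-fold lower, at the limit of 3 counts over the class. Of those 111 UMIs, 110 came from fibroblast cluster 4, and the other fibroblast clusters held 0 or 1 UMIs per library. In library 2 alone there is no such bound, since 3 counts in contractile stroma are 6.41 CPM, against 5.16 CPM in fibroblasts. Under DESeq2 the Emilin2 and Fbln5 calls were lost, and that of Fbln5 also without the library term. Eln, at -0.14 ± 0.55 (adjusted p = 0.978), Efemp2, at -0.04 ± 0.28 (adjusted p = 0.999), and Emilin1, at 0.35 ± 0.38 (adjusted p = 0.809), did not pass. Nor did Fbln2, at -1.74 ± 0.52 (adjusted p = 0.0524), with -2.55 in library 1 alone and -0.56 in library 2 alone, or Loxl1, at -1.14 ± 0.35 (adjusted p = 0.063). The number of genes called lower ranged from 1 under DESeq2 to 6 with another random gene split. Of the partner genes, 2 of 10 microfibril genes, 3 of 6 lysyl oxidase and activator genes, 1 of 5 relatives and 3 of 7 proteases were lower and 0 were higher, with Pcolce2, a relative of Pcolce, at 1.28 and 4.27 CPM against 120 and 42.9 CPM.

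Mural cells, with smooth muscle and pericyte markers, were set against fibroblasts. Of the 10 genes, 6 were lower in mural cells and 0 were higher, where 3.24% of all genes were called lower and 2.69% higher (5.93% either way), and the median log2 fold change of all genes was -0.22. Fbln2 was lower by -3.94 ± 0.92, Fbln1 by -2.59 ± 0.66, Fbln5 by -2.49 ± 0.43, Efemp1 by -2.47 ± 0.74, Loxl1 by -2.04 ± 0.42 and Lox by -1.79 ± 0.43 (SE, edgeR adjusted p between 0.000292 and 0.0406). Fbln1 differed between the libraries, at 27.9 and 174 CPM in mural cells against 480 and 376 CPM. Summed fibroblast markers in mural cells were at 3105 and 7042 CPM, and their part in this difference was not tested. For Fbln2 the mural class held 0 and 3 UMIs, a ratio of 0.0748 with counting bounds of 0.0154 and 0.219. The Efemp1 call was lost in 6 of 9 alternative fits. The count was 3 without the library term and 3 under DESeq2, and the class had only 51 and 35 cells.

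Endothelium was set against fibroblasts. Of the 10 genes, 7 were lower in endothelium and 0 were higher, where 8.23% of all genes were called lower and 6.53% higher (14.8% either way). Lox was lower, at 16.4 and 13.5 CPM against 196 and 176 CPM, a log2 fold change of -4.00 ± 0.45 (SE, edgeR adjusted p = 1.10e-07). Fbln1 was lower by -3.73 ± 0.65, Loxl1 by -3.57 ± 0.41, Efemp1 by -2.68 ± 0.60, Fbln5 by -2.58 ± 0.40 and Efemp2 by -1.74 ± 0.33 (adjusted p between 1.59e-07 and 0.0015). Emilin2, with 0 UMIs against 111, was at least 6.45-fold lower, a call lost under DESeq2 (adjusted p = 0.255). This too rests on cluster 4 and on library 1, since 3 counts in endothelium of library 2 are 6.77 CPM, against 5.16 CPM in fibroblasts. Fbln2, at -0.43 ± 0.48 (adjusted p = 0.661), and Emilin1, at -0.90 ± 0.42 (adjusted p = 0.179), did not pass. For Fbln2 library 1 alone gave -1.03 and library 2 alone 0.38. Among the relatives, Mmrn2, an EMILIN family gene of vessel lining, held 335 and 244 CPM in endothelium, against 1.27 and 2.17 CPM in fibroblasts. Fbln7, a fibulin gene, was lower at 4.31 and 4.51 CPM against 37.5 and 41.8 CPM, and in all 2 of 5 relatives were higher and 2 lower, while 8 of 10 microfibril genes were lower and 0 higher.

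Retinal pigment epithelium was set against the pigmented ciliary or iris epithelium, both derived from the outer layer of the optic cup. Of the 10 genes, 1 was higher in retinal pigment epithelium and 2 were lower, where 5.13% of all genes were called higher and 5.5% lower (10.6% either way). Efemp1 was lower, at 45.8 and 43.1 CPM against 367 and 411 CPM, a log2 fold change of -2.83 ± 0.54 (SE, edgeR adjusted p = 0.000377). Lox was lower by -3.38 ± 0.80 (adjusted p = 0.00418), from 1 and 2 UMIs against 19 and 12. Loxl1 was higher, at 118 and 81.9 CPM against 48.6 and 38.6 CPM, by 1.49 ± 0.38 (adjusted p = 0.00852). Without the pigmented cells that hold Myh11 the Loxl1 call was lost (adjusted p = 0.0724), and without the 5% of cells with the most UMIs that of Lox was lost (adjusted p = 0.0997). Fbln1 and Fbln5 had -1.81 ± 0.67 and -1.03 ± 0.38 (adjusted p = 0.0807 and 0.084) and did not pass. Nor did Emilin2, at -2.66 ± 0.99 (edgeR adjusted p = 0.0906), from 0 and 4 UMIs against 9 and 17.

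The fibroblast class comprised 3 clusters, each set against the mean of the others. Cluster 0 (366 and 172 cells) was led by Igfbp2, Chil1, Tnmd and Myoc, cluster 4 (290 and 62 cells) by Mmp3, Col3a1, Clec3b and Lum, and cluster 10 (180 and 296 cells) by Myoc, Igfbp5, Edn3, Mgp and Pi16. Each held trabecular meshwork, corneal and scleral markers besides those of fibroblasts, so they are named here by number. Fbln5 and Efemp1 were called in opposite directions in cluster 0. In cluster 0 Fbln5 held 1019 and 833 CPM, against 409 and 366 CPM in cluster 4 and 220 and 199 CPM in cluster 10. Efemp1 held 13.3 and 17.1 CPM in cluster 0, against 282 and 226 CPM in cluster 4 and 117 and 138 CPM in cluster 10. In cluster 0, 335 of 366 and 139 of 172 cells held a Fbln5 UMI, while 25 and 16 held one of Efemp1. In cluster 4, 218 of 290 and 51 of 62 cells held Fbln5, 131 and 26 held Efemp1, and 94 and 19 held both.

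In cluster 0, 1 of the 10 genes was higher and 1 was lower, where 1.71% of 7091 genes were called higher and 0.747% lower (2.45% either way). Fbln5 was higher by 1.85 ± 0.34 (SE, edgeR adjusted p = 0.000506), a call lost under DESeq2 (adjusted p = 0.0754). Efemp1 was lower by -3.45 ± 0.52 (adjusted p = 2.58e-05), and this call was kept in all 6 alternative fits, with adjusted p up to 0.000889. Lox, Loxl1, Efemp2 and Emilin1 had log2 fold changes between 0.78 and 0.95 that did not pass (adjusted p between 0.0992 and 0.248). Of the partners, Ltbp2 was higher, at 362 and 268 CPM in cluster 0, against 34.0 and 33.8 CPM in the other clusters, and Pcolce was higher, at 1894 and 1541 against 988 and 626 CPM.

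In cluster 4, 3 of the 10 genes were higher and 0 were lower, where 2.68% of all genes were called higher and 1.65% lower (4.33% either way). Efemp1 was higher by 2.55 ± 0.41 (edgeR adjusted p = 3.38e-05) and Fbln2 by 1.82 ± 0.35 (adjusted p = 0.000623), and the Fbln2 call was lost under DESeq2 (adjusted p = 0.127). Emilin2 held 49.1 and 47.8 CPM, from 92 and 18 UMIs, against 0 UMIs in cluster 0 and 0 and 1 in cluster 10. Pooled, cluster 4 was 340 times as high as the others, with a lower 95% counting bound of 59.7 (adjusted p = 6.8e-09). The summed neutrophil markers, S100a8 and S100a9 among them, stood at 156 and 10.6 CPM there, against 2.87 and 3.56 CPM in cluster 0, 3.49 and 3.15 CPM in cluster 10 and 96277 and 117651 CPM in neutrophils. Of the 48 and 10 cells of cluster 4 with Emilin2, 0 and 0 held a UMI of Retnlg, Csf3r or Cxcr2, the other neutrophil markers, whereas 16 of 16 and 10 of 10 neutrophils with Emilin2 did. A UMI of S100a8 was present in 1 of the 48 and 1 of the 10 cells of cluster 4, against 14 of 16 and 9 of 10 neutrophils. The matrix proteases Mmp2 (1045 and 1333 CPM against 245 and 187 CPM) and Mmp14 (133 and 165 against 52.1 and 71.1 CPM) were higher in cluster 4, and Fbn1, the main fibrillin, was higher at 441 and 385 against 161 and 139 CPM. Of the same microfibril list Ltbp2 was lower, at 19.2 and 15.9 against 293 and 135 CPM, so that 1 of 10 was higher and 1 lower.

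In cluster 10, 3 of the 10 genes were lower and 0 were higher, where 1.92% of all genes were called lower and 1.81% higher (3.72% either way). Fbln5 was lower by -1.64 ± 0.39 (edgeR adjusted p = 0.00643), Fbln2 by -1.59 ± 0.40 (adjusted p = 0.0116) and Lox by -1.11 ± 0.33 (adjusted p = 0.0445). None of the 3 was called under DESeq2, and 1 was called without the library term. Pcolce2 stood at 0 and 1.58 CPM in cluster 10, against 142 and 87.1 CPM in the other clusters. Of the 10 microfibril genes, 0 passed in either direction.

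**Figure D4:**
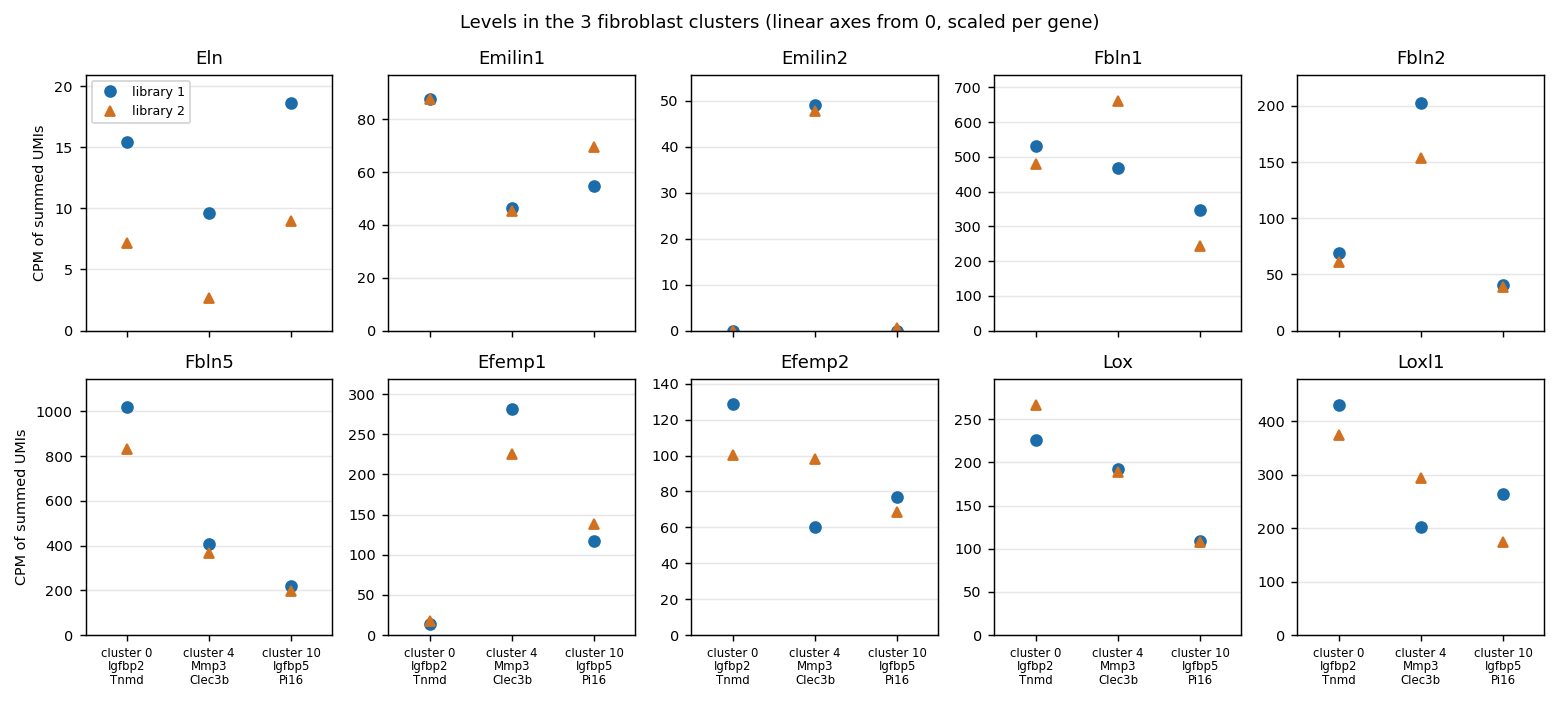
Level of each gene in CPM of summed UMIs (vertical axes, linear from 0 and scaled per gene) in the 3 fibroblast clusters (horizontal axis, with 2 leading genes each), with circles for library 1 and triangles for library 2. Fbln5 is highest and Efemp1 lowest in cluster 0, and Emilin2 is near 0 outside cluster 4.

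Likeness of pattern was measured as Pearson's r of log2(CPM + 1) over the 36 class sums, which share 2 libraries and differ in depth, and it is given as a description. Among the 10 genes, Fbln5 was most like Efemp2 (r = 0.85) and Loxl1 (r = 0.82), and Eln was most like Emilin1 (r = 0.78). Emilin2 and Efemp2 had r = -0.15, the lowest of the 45 pairs. Among 2314 held-out genes, Fbln5 was most like Fkbp9 (0.93), Islr (0.91) and Serpinh1 (0.90), and Lox was most like Fmo1 (0.90), Kdelr3 (0.90) and Ccdc80 (0.88). Loxl1 was most like Islr (0.88), Fbn1 (0.86) and Pcolce (0.85). Fbln1 was like Fstl1 (0.81) and Col5a1 (0.79), Fbln2 like Itm2a (0.81), Clec14a (0.80) and Fzd1 (0.80), Efemp1 like Aldh6a1 (0.85), Pxdn (0.79) and Fkbp9 (0.77), and Emilin1 like Clmp, Igfbp4 and Prrx2 (0.81 each). Eln, Efemp2 and Emilin2 had fewer than 50 UMIs in their highest class in at least 1 library and were not matched.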

How the data were processed

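Droplet-based single-cell RNA libraries of 2 pools were analysed as deposited. The authors deposited UMI counts, not normalized, for each gene and barcode, made with Cell Ranger 3.1.0 per the file headers. The submitters' processing notes name CASAVA 1.8, Seurat, Cell Ranger, GRCm38 and mm10, without their roles. The annotation is not given in the sources used here. A further deposited matrix per library held the same counts, with 0 entries differing.

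The members and lists were chosen with earlier results of these data known. Barcodes under 500 genes or over 30% mitochondrial UMIs were dropped. No doublet caller was run. Genes were split at random (seed 1) into 16742 clustering genes, with all markers, and 16714 held-out genes, with all members and listed genes, and only held-out genes were tested. Cells were clustered without integration on 2000 variable genes and 30 components by the Leiden method at resolution 1 (scanpy 1.11.5). Clusters were named from 199 marker genes of 33 types by the highest mean log2 fold over a type's markers, with at least 3 counted (mean of at least 0.5 per 10000 UMIs and 4 times the median of the other clusters). That scoring was written and revised after the clusters were seen. Of the 199 markers, 198 were among the genes counted. Contractile stroma was instead named by a fixed rule, with Lmx1b, Chodl, Acta2 and Tagln counted and Myh11 not counted. The melanocyte name also required Mlana, Kit and Sox10, and not Krt8 together with Krt18. The retinal pigment epithelium name also required Rpe65, Rgr and Rdh5. Fibroblast, meshwork, corneal and scleral names were merged.

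Summing the counts of a class within a library gave 36 sums, which entered 1 edgeR 4.0.16 fit (R 4.3.3) with class and library as terms, TMM, filterByExpr and the quasi-likelihood F test, with 17 residual degrees of freedom. A call needed an adjusted p (Benjamini-Hochberg, over 6998 genes) under 0.05 and a log2 fold change of 1 or more in size. Fibroblast clusters were tested alike on 48 sums and 7091 genes. Library was the replicate block, because all classes of a library come from 1 pool. All 10 members passed the filter in both fits. The other classes also supply the spread. The planned comparison of contractile cells with fibroblasts was run as 2 comparisons, since these cells formed 2 classes. The alternatives were another mitochondrial limit (15%), resolution (2) and gene split (seed 2), RLE size factors, DESeq2 1.42.0, no filter, no library term, only the classes compared, single libraries, and leaving out the 5% of cells with the most UMIs. Leaving out pigmented cells with Myh11 was chosen after seeing the data. Listed partner genes are named by size of change, up to 3 per direction, given 50 UMIs or more per library in whichever class was higher. Retinal ganglion cells, with 16 in library 1, did not enter the class fit. Positions come from the GENCODE annotation for GRCm38, where 32655 of the 33456 identifiers matched. Some items are not reported here.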

Additional observations from a re-analysis of the deposited data

How the results depend on the processing

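Of 38 calls of a gene in a comparison, 22 were kept in every alternative fit run, and of 329 such fits 298 kept the call, 31 lost it and 0 reversed it. Single libraries, which allow no test, gave the sign of the call in 76 of 76 values. The calls were made from the same 2 libraries, so these signs are not independent of them. For Emilin2 in fibroblasts against the layers the value was 0.08 in library 2, where the pooled CPM ran the other way. The cause of the changes below was not tested. The number of the 10 genes called lower in non-pigmented against pigmented epithelium, 0 as reported, was 1 without the filter, 1 with only the classes compared, 1 at a mitochondrial limit of 15%, 1 with gene split seed 2 and 2 without the 5% of cells with the most UMIs. In contractile stroma against fibroblasts it was 1 under DESeq2, 6 with seed 2, and 5 without the filter, with only the classes compared, at 15%, at resolution 2 and without the deepest 5% of cells, where 3 were reported. In mural cells it was 3 without the replicate block and 3 under DESeq2, where 6 were reported. In retinal pigment against pigmented epithelium it was 5 without the filter, 4 with only the classes compared and 4 with seed 2, where 2 were reported, and the number called higher was 0 without cells that hold Myh11. In cluster 0 the number called higher was 0 under DESeq2 and 2 without the deepest 5% of cells. In cluster 10 the number called lower was 1 without the replicate block and 0 under DESeq2. In the other comparisons the number called without the replicate block stayed within 1.5 times that reported.

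Of 400 alternative fits of uncalled values, 31 gave a call and 14 changed sign. Without Myh11 cells, Eln (-0.15), Emilin1 (-0.52) and Emilin2 (0.30) did so between the epithelial layers, and Emilin1 (-0.39) and Emilin2 (1.09) between the pigmented epithelia. Between contractile stroma and fibroblasts Efemp1 was 0.10 at 15%, Eln 0.17 at resolution 2 and 0.47 with seed 2, and Efemp2 0.17 with seed 2. The Fbln2 log2 fold change, retinal pigment versus pigmented ciliary or iris epithelium, was 1.09 at 15%, 0.00796 with seed 2 and 1.50 without the deepest 5% of cells, and that of Efemp2 was 0.012 at resolution 2 and 0.034 without those cells. Eln, Emilin2 and the mural class are limited by their UMIs and cells, and fewer than 1000 UMIs in many rods limit their shares.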

Other observations

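Some classes enter no comparison. Fbln1 in cones stood at 96.05 CPM in library 1, from 21 UMIs, and at 11.3 CPM in library 2, from 25 UMIs. The summed fibroblast markers in the same cones stood at 2493 and 243 CPM, and their part in this difference was not tested. Efemp1 in the macrophage cluster led by C1qa and Pf4 stood at 3.46 CPM in library 1 and 43.4 CPM in library 2, from 6 and 70 UMIs. Emilin2 in the antigen-presenting cluster led by Cd74 and H2-Aa stood at 31.9 and 53.5 CPM, from 20 and 16 UMIs, and in the macrophage cluster at 5.20 and 13.6 CPM. The 45 retinal ganglion cells of library 2 held 20 Efemp1 UMIs (17.5 CPM), and the 16 of library 1 held 1.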
